A study of Drosophila melanogaster with 6 samples.

Results

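The vitelline membrane and inner eggshell genes are genes that the follicle cells of the Drosophila ovary use to build the innermost layers of the egg covering. The list holds 9 genes, Vm26Aa, Vm26Ab, Vm26Ac, Vm32E, Vm34Ca, psd, Femcoat, yellow-g and yellow-g2, and a gene was measured where a probe set of the array names it alone. By this rule 8 of the 9 genes were measured, each by 1 probe set, of 11952 genes and 18769 probe sets in all. Vm26Ab, which encodes a major structural protein of the vitelline membrane, is named by no probe set used here and has no value. Whole adult flies of 2 wild type strains, Canton-S, which comes from North America, and D18, collected in Russia, were hybridized to GeneChip Drosophila Genome 2.0 arrays, 3 per strain. The study compares the strains as highly inbred lines after decades in the laboratory. For the study they were cultured on the same medium, which held an antibiotic, at 25 °C, and no other treatment is described. The sample labels give an age of 3 days, and the methods of the study give 2 to 3 days and 15 flies of both sexes per extraction. The deposited values are on a log2 scale, where a difference of 1 is a doubling. The signal also depends on the probes of a set, so that a brighter probe set does not mean more transcript, and genes are compared by their differences between arrays.

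During egg formation the somatic follicle cells surround the growing oocyte and secrete the eggshell in layers. The vitelline membrane is laid down first, next to the oocyte, from small secreted proteins that share the VM domain, and the chorion layers follow outside it in late follicles. The proteins are later linked to each other, which makes the shell hard and little permeable. The VM-domain genes are known as markers of follicle cells at the stages when yolk is taken up, and males have no such cells.

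The arrays fell into 2 types that cut across the strains, and the members' values have to be read with these types. On Canton-S replicate 3 and D18 replicate 2 the medians of 7 male accessory gland genes were 11.40 and 11.17, whereas the other 4 arrays had 2.46 to 2.75. The same pair had medians of 4.19 and 4.24 for 6 Y-linked genes, against 1.58 to 1.72 elsewhere, and of 2.92 and 2.82 for 8 germline genes of the ovary, against 9.21 to 10.36 elsewhere. The pair is called male-type and the other 4 arrays female-type after these levels. The labels give no sex, and by these markers no array looked like a mixture of females and males. The types were found in these data, partly through eggshell genes, so that the difference between them is described and not tested.

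All 8 measured genes were bright on the 4 female-type arrays and dim on both male-type arrays. The lowest female-type array lay above the highest male-type array by 3.20 to 6.85 on the log2 scale, and no member overlapped. Across the whole array 47.3% of probe sets had all 4 female-type arrays above both male-type arrays, and 0.911% did so by at least 3.20, a gap taken from the members themselves. In whole flies, fewer follicle cells and less RNA per cell cannot be told apart.

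Of the VM-domain genes, Vm26Aa, a main component of the vitelline membrane, had log2 values of 11.20 and 12.54 on the female-type arrays of Canton-S and 13.23 and 12.98 on those of D18. On the male-type arrays it had 4.35 in Canton-S and 3.82 in D18. The difference between the means of the types was 8.40 on the log2 scale, the widest among the members, and 338-fold on these values. Vm34Ca, another VM-domain protein of the shell, had 11.41 and 12.37 in Canton-S and 13.05 and 13.03 in D18, against 4.85 and 5.05 on the male-type arrays. On D18 replicate 1 the 2 signals lay near the top of the scale, 0.15 and 0.34 below the highest value of the array. A difference at the top of the scale can be understated for these genes, which was not tested.

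Vm32E, whose protein is found in the vitelline membrane and also reaches the endochorion, had 8.67 and 10.10 in Canton-S and 11.45 and 10.39 in D18. Its male-type values were 2.89 and 3.38, a difference between the types of 7.02 on the log2 scale. Vm26Ac, the neighbour of Vm26Aa in the same gene cluster, had 6.31 and 7.24 in Canton-S and 9.75 and 8.60 in D18, with 2.35 and 3.11 on the male-type arrays. With 5.25 it showed the smallest difference between the types. The palisade gene psd, needed for the structure of the vitelline membrane and the linking of its proteins, had 7.04 and 8.10 in Canton-S, 9.04 and 8.51 in D18, and 2.82 and 2.68 on the male-type arrays. In these 3 genes, too, both D18 female-type arrays were higher than both Canton-S ones.

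Femcoat, which encodes a female-specific protein needed for the formation of the chorion, had 8.51 and 7.99 on the female-type arrays of Canton-S and 10.16 and 9.26 on those of D18. Its male-type values were 2.76 and 3.58. The genes yellow-g and yellow-g2 belong to the yellow family, are used in the follicle cells to make the shell rigid, and lie in a region of chromosome arm 3L that follicle cells amplify. Log2 values of yellow-g were 9.35 and 8.44 in Canton-S and 11.13 and 9.73 in D18, with 3.03 and 3.75 on the male-type arrays. For yellow-g2 they were 9.68 and 8.48 in Canton-S and 10.91 and 9.64 in D18, with 2.94 and 2.96 on the male-type arrays. In yellow-g2 alone the strains overlapped among the female-type arrays, by 0.04 on the log2 scale.

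**Figure D1:**
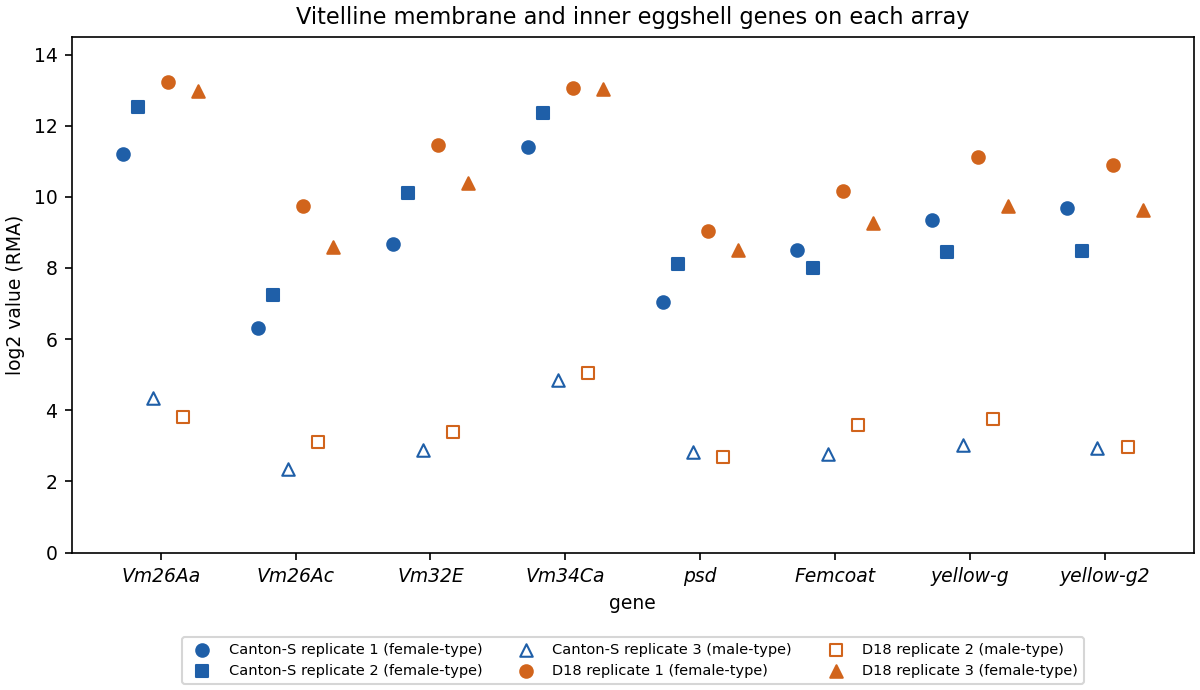
The log2 value (vertical axis) of each of the 8 measured genes (horizontal axis) on each of the 6 arrays, with Canton-S in blue and D18 in orange, marker shape for the replicate and open markers for the male-type pair. Every filled marker lies above the open markers of its gene, by at least 3.20, and the filled orange markers lie above the filled blue ones in all genes but yellow-g2.

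On the male-type arrays the members were at the 15.2 to 44.8 percentile of all probe sets of the array. Their values there were 2.35 to 5.05. The lowest values of these 2 arrays were 0.98 and 1.03, and their lower quartiles 2.94 and 2.99. The size of the fold changes between the types may depend on background signal at such low values, which was not tested. Vm34Ca had the highest of these percentiles, and whether its 4.85 and 5.05 are transcript or background was not tested.

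Other genes of the egg covering, and genes of the yolk, were compared in the same way. The lists hold chorion proteins, yolk proteins with their receptor, and further inner eggshell genes. All 7 measured chorion proteins and all 4 yolk genes were higher on every female-type array than on both male-type arrays, with median differences of 7.48 and 8.33 on the log2 scale against 6.50 for the members and 0.33 for all probe sets. Of 10 other inner eggshell genes 6 did so. In this group dec-1 (dec), which encodes precursor proteins of the eggshell, differed by 7.46 and Pxt, a peroxidase of follicle maturation, by 7.94. In contrast, Pxd and pip, those of the list with the lowest mean on the female-type arrays, differed by -0.49 and 0.13, and their arrays overlapped.

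The yellow family showed that the pattern of yellow-g and yellow-g2 was not shared by most of their relatives. These genes encode secreted proteins known mainly from cuticle pigmentation. The difference between the array types was 6.27 for yellow-g and 6.73 for yellow-g2, and -1.05 to 3.28 for the other 11 measured family members. Without yellow-k, which had the 3.28 and was singled out after its values were seen, the others reached at most 1.10. The brightest, yellow-d and yellow-b, had -0.05 and -0.18, and the dimmest, yellow-e2 and yellow-e3, had -0.84 and 1.10. Values of yellow-k were 4.75 and 5.73 on the female-type arrays of Canton-S, 7.26 and 6.20 on those of D18, and 2.78 and 2.64 on the male-type arrays.

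**Figure D2:**
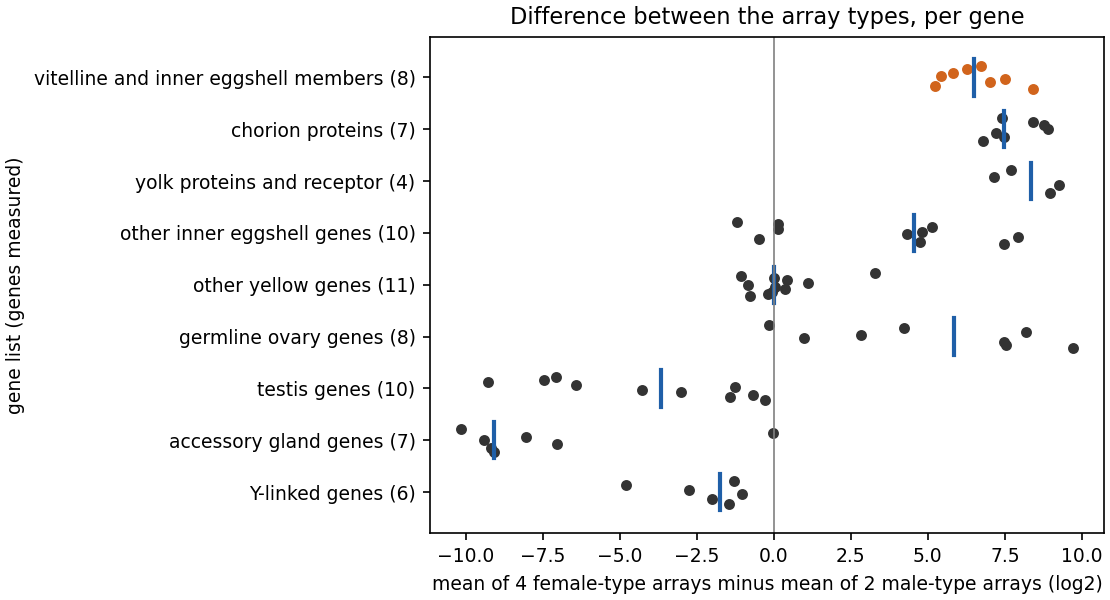
Each point is a gene and shows the mean of the 4 female-type arrays minus the mean of the 2 male-type arrays on the log2 scale (horizontal axis), by gene list (vertical axis, with the number of genes measured), and the blue bar is the median of the list. The 8 members (orange) lie between 5.25 and 8.40, and the other yellow genes, with the exception of yellow-k, between -1.05 and 1.10.

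Canton-S was compared with D18 to find genes that differ between the strains, and over all 6 arrays no member was found to differ. The mean log2 difference, Canton-S minus D18, was between -0.65 for Vm26Aa and -1.85 for Vm26Ac, with standard errors of 2.16 to 3.40. The thresholds of the study are a difference of more than 2-fold together with p below 0.01 before adjustment, and 0 of 8 members passed them in limma, where 1.27% of all probe sets did. With the replicate number as a block 0 members passed as well, and the probe sets past the thresholds went from 239 to 92. No member had an unadjusted p under 0.05, which 0.623% of all probe sets had toward D18, or an adjusted p under 0.05, which 0.0373% had. The lowest unadjusted p, that of Vm26Ac, was 0.428. The residual SD of the members was 3.11 to 4.90 on the log2 scale against a median of 0.43 for all probe sets. Each strain holds 1 male-type array, and Vm26Aa averaged 9.36 ± 4.39 over the Canton-S arrays and 10.01 ± 5.36 over the D18 arrays (SD, n = 3). An interval of -9.14 to 7.85 (95% confidence) for this gene shows that the 6 arrays could not have resolved a difference of several fold.

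Leaving out an array turned the direction in 7 of the 8 genes. Each strain holds 1 male-type array, so that any left-out array makes the mix of types unequal between the strains. The gap between the types then enters the strain difference, and these fits cannot show how far the strain difference itself depends on single arrays. Without Canton-S replicate 3 the median difference of the members was 0.90, without D18 replicate 1 it was 0.36, and without D18 replicate 2 it was -3.49. Vm26Ac, the member with the smallest difference between the types, alone kept its sign in each of the 6 fits, from -3.87 to -0.37. A block for the array type leaves the differences as they are and takes the type out of the spread. With it Vm26Ac, at -1.85 ± 0.49 (SE, adjusted p = 0.231 from limma), and Femcoat, at -1.24 ± 0.31 (SE, adjusted p = 0.207 from limma), passed the thresholds of the study, which do not use the adjusted p. These are 2 of 8 members, where 2.38% of all probe sets passed in this fit.

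Among the 4 female-type arrays all 8 genes had a lower mean in Canton-S than in D18, by 1.15 to 2.39 on the log2 scale, which is 2.22-fold to 5.25-fold. This comparison, 2 arrays against 2, rests on array types found in the data and was made with those earlier results known. Both D18 arrays lay above both Canton-S arrays in 7 of 8 members, and yellow-g2 was the exception. That order was found in 26.8% of all probe sets, and together with a mean more than 2-fold higher in D18 in 1.03%. Vm26Ac was the most different, with a Canton-S mean of 6.78 ± 0.66 and a D18 mean of 9.17 ± 0.81 (SD, n = 2), a log2 difference of -2.39 with an interval of -3.65 to -1.14 (95% confidence).

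Vm26Ac was the only member past the thresholds of the study in this fit (unadjusted p of 0.0042 and adjusted p = 0.221 from limma), where 2.74% of all probe sets passed and 0.511% did so toward D18. It did not pass without Canton-S replicate 1 or when the variance was not moderated. Femcoat, at -1.46 on the log2 scale, missed them narrowly (unadjusted p of 0.0104 and adjusted p = 0.298 from limma). For the VM-domain genes Vm26Aa, Vm32E and Vm34Ca the differences were -1.24, -1.53 and -1.15, and for psd -1.21. Those of yellow-g and yellow-g2 were -1.54 and -1.19. The sizes rest on single arrays: with 1 array left out the difference was -1.90 to -0.57 for Vm26Aa, -2.25 to -0.81 for Vm32E, -1.63 to -0.67 for Vm34Ca and -1.74 to -0.68 for psd. For Femcoat it was -1.91 to -1.006, for yellow-g -2.24 to -0.84, for yellow-g2 -1.82 to -0.56 and for Vm26Ac -2.97 to -1.82. In 7 of 8 members the unadjusted p was under 0.05 toward D18, against 3.47% of all probe sets, and that of yellow-g2 was 0.0895. This count fell to 0 of 8 when the variance was not moderated, where 4.5% of all probe sets had such a p toward D18. A fit with 1 array left out leaves 1 strain with a single array, so this count is not given for it. The 7 of 8 thus hold only for the 4 arrays together. The median difference of the members, -1.35, became -1.27 without Canton-S replicate 1 and -1.68 without Canton-S replicate 2. It became -1.003 without D18 replicate 1 and -1.87 without D18 replicate 3. No member reached an adjusted p under 0.05 over all probe sets, where 0.309% did. The members come from the same cells of the same flies and are not independent of each other.

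**Figure D3:**
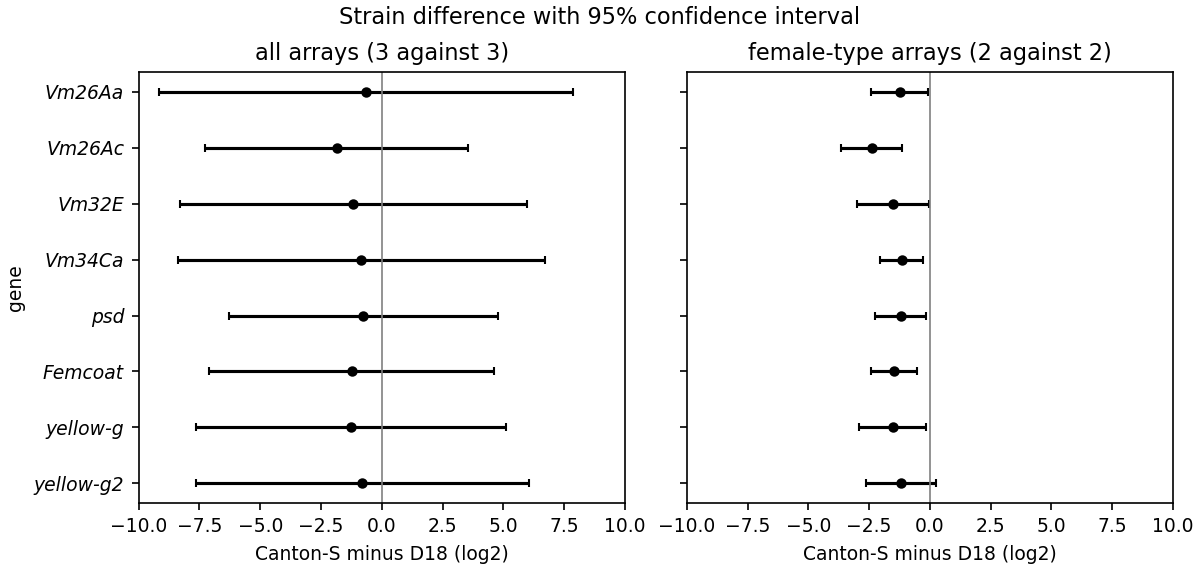
The mean of Canton-S minus the mean of D18 on the log2 scale (horizontal axis) with its 95% confidence interval from limma, for each of the 8 genes (vertical axis), over all 6 arrays (left) and over the 4 female-type arrays (right). All intervals on the left include 0, and on the right those of all genes but yellow-g2 lie below 0, before any adjustment for the number of probe sets.

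Most other listed genes of egg formation also stood lower in Canton-S on these arrays. The median difference was -0.88 for 7 chorion proteins, all 7 of them with both D18 arrays above both Canton-S arrays, and 2 of them, Cp16 and Cp19, passed the thresholds of the study toward D18. The median was -0.61 for 8 germline genes of the ovary, 7 of them lower in Canton-S, and -0.26 for 4 yolk genes. Without Canton-S replicate 1 these medians were -0.19, with 5 of 8 germline genes lower, and 0.06, with 1 of 4 yolk genes lower. All 7 chorion proteins and all 8 members remained lower. Where both D18 arrays lie above both Canton-S arrays, a left-out array cannot turn the sign. That order held in all 7 chorion proteins and 7 of 8 members, against 3 of 8 germline genes and 1 of 4 yolk genes. None of the germline and yolk genes passed the thresholds. The 10 other inner eggshell genes had a median of only -0.22, with 7 lower and 3 higher in Canton-S. Of these 1 passed, dec-1 at -1.69. Without D18 replicate 1 neither dec-1 nor Cp16 and Cp19 passed. Cp16 and Cp19 also failed without Canton-S replicate 2, and dec-1 and Cp19 without Canton-S replicate 1. The median of the members was -1.35, and -0.74 after the median of the germline genes was subtracted, where Vm34Ca had -0.54 and Vm26Ac -1.78. The part of the share of ovary tissue in the strain difference was not tested.

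In the yellow family most relatives of yellow-g and yellow-g2 had a strain difference of the other sign, in a count that depends on 1 array. Of the 11 other measured genes 10 had a higher mean in Canton-S on the female-type arrays, with a median of 0.63 for the list, and yellow-k, at -1.49, was the exception. Without Canton-S replicate 1 only 6 of 11 were higher in Canton-S, with a median of 0.17. The brightest, yellow-d, was 2.05 higher on the log2 scale in Canton-S and passed the thresholds of the study. A test of the difference between these genes was not made.

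The difference between the strains was also set side by side in both array types. D18 minus Canton-S was 1.24 for Vm26Aa on the female-type arrays and -0.53 on the male-type pair, where both values were dim. For Femcoat it was 1.46 and 0.82. In limma the interaction of strain and array type gave an unadjusted p of 0.0756 to 0.428 over the members, and no member reached an adjusted p under 0.05, as 0.0213% of all probe sets did. The male-type side holds 1 array per strain, so that the spread in this fit comes from the female-type pairs alone, and the fit does not show that the strains differ alike in both types.

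Within Canton-S the members split into 2 groups by which female-type array was higher. All 4 measured VM-domain genes and psd were lower on replicate 1 than on replicate 2, by 0.93 for Vm26Ac to 1.43 for Vm32E on the log2 scale. Femcoat, yellow-g and yellow-g2 were higher on replicate 1, by 0.53, 0.91 and 1.20. Over all probe sets replicate 1 was lower by more than 0.9 in 1.44% and higher by more than 0.5 in 10.9%, limits chosen after the values were seen. The chorion proteins were higher on replicate 1 in 6 of 7 cases, with a median of 0.39, while all 4 yolk genes and 7 of 8 germline genes were lower there, with medians of -0.49 and -0.79. In development the VM-domain genes are active in follicles that take up yolk, and most chorion genes in later ones. Single arrays were compared here, so no test was possible.

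Of the 10 other inner eggshell genes 8 were lower on Canton-S replicate 1 and 2 were higher, with a median of -0.47. In this group dec-1 had -0.93. The widest differences, singled out after their values were seen, were -1.27 for Fcp3C, a follicle cell protein, and -1.04 for ndl, a protease of the vitelline membrane, and in the other direction 2.51 for Pxd and 1.32 for tsl. In D18 all 8 members were higher on replicate 1 than on replicate 3, by 0.02 for Vm34Ca to 1.40 for yellow-g. The chorion proteins were higher there in 7 of 7 cases, with a median of 0.46, and 54.7% of all probe sets were. By direction, the split of the members seen in Canton-S was thus not present in D18. By size, the VM-domain genes and psd were higher by 0.02 to 1.15, and Femcoat, yellow-g and yellow-g2 by 0.90 to 1.40. The smallest, 0.02 for Vm34Ca and 0.25 for Vm26Aa, come from signals near the top of the scale. Of the yolk genes 1 of 4 was higher on D18 replicate 1, with a median of -0.15, and of the germline genes 5 of 8, with a median of 0.26.

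**Figure D4:**
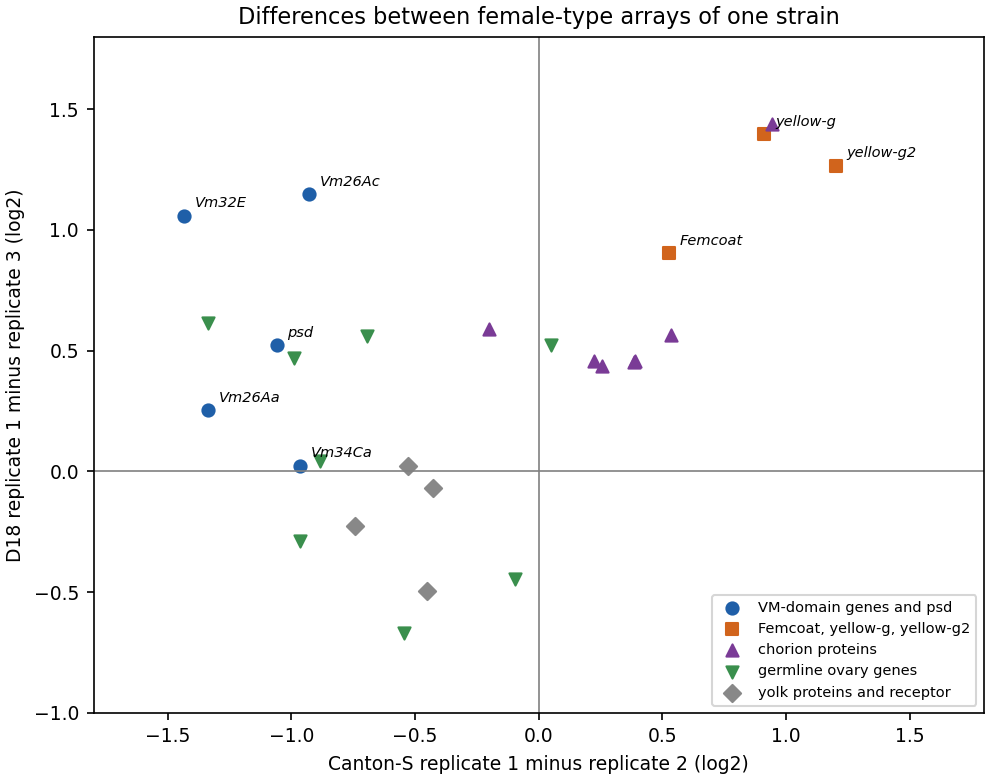
For each gene, Canton-S replicate 1 minus replicate 2 (horizontal axis) and D18 replicate 1 minus replicate 3 (vertical axis), both on the log2 scale, for the members and for chorion, germline and yolk genes. The VM-domain genes and psd lie left of 0, between -1.43 and -0.93, and Femcoat, yellow-g and yellow-g2 right of 0, between 0.53 and 1.20, with all 8 above 0 on the vertical axis.

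The genes whose array profile was most like the median profile of the members were CG13083, CG13114, CG13084, CG15571 and Obp19c. Profiles were centred on their own mean, and likeness was the root mean square distance over the 6 arrays, which was 0.33 to 0.44 on the log2 scale for these genes. CG13083, the closest, had 9.57 and 8.91 on the female-type arrays of Canton-S, 10.88 and 10.15 on those of D18, and 3.78 and 3.41 on the male-type arrays. Among the members the distance was 0.29 for yellow-g and 0.38 for Femcoat and yellow-g2. For the VM-domain genes and psd it was 0.51 to 1.07, with Vm26Aa the least typical. The similar genes were all higher on Canton-S replicate 1 than on replicate 2. In this they were like Femcoat, yellow-g and yellow-g2 and unlike the VM-domain genes and psd. All of these profiles hold the large step between the array types.

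The members lie on 3 chromosome arms, 6 of them on 2L, 2 on 3L and Femcoat on X. Vm26Ab, Vm26Ac, Vm26Aa and psd follow each other on 2L with no other annotated gene between them, in Release 6 of the genome. The next genes on either side of this run, CG13998 and CG13992, were also higher on all female-type arrays, by mean differences of 2.21 and 4.05 on the log2 scale. CG13998 had 4.49 and 4.87 in Canton-S and 6.28 and 5.14 in D18, and 2.84 and 3.12 on the male-type arrays. Muc4B, the neighbour of Femcoat, had 7.88 and 6.75 in Canton-S, 9.05 and 7.86 in D18, and 2.08 and 4.65 on the male-type arrays, and like Femcoat it was higher on Canton-S replicate 1. The pattern did not extend to every neighbour: Flad2, next to Vm34Ca, was lower on the female-type arrays, at 2.53 to 3.77 against 6.49 and 7.38. Of the other neighbours with a probe set, CG7110, Boh2 and CG15570 were higher on all female-type arrays, by 2.69, 2.24 and 4.34. So was CG32302 at the edge of yellow-g, by 0.92, with its lowest female-type value only 0.10 above its highest male-type value. All female-type arrays were above both male-type arrays in 47.3% of all probe sets. Vm32E lies within the span of Ca-beta, and a probe set of that gene differed by -0.78 between the array types, with all 4 female-type arrays below both male-type arrays.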

How the data were processed

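Total RNA (250 ng per array) of whole flies was labelled with biotin, and per the methods each repeat paired an extraction of Canton-S with one of D18, and repeats were 1 week apart. The authors ran RMA with its default settings on the scans (background correction, normalization of the arrays together, 1 value per probe set) and deposited log2 values, which were taken unchanged, leaving out the 183 control probe sets. Medians of the arrays were 4.89 to 5.55. The number of arrays limits the precision.

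Probe sets were named by the annotation of the platform with current symbols: 13646 name 1 gene, 402 several and 4721 none. Chromosome arms and the order of genes come from Release 6, and no coordinates are given because the array was designed on another release. Strains were compared in limma 3.58.1 (R 4.3.3) by lmFit and eBayes over 18769 probe sets with Benjamini-Hochberg adjustment. The labels and methods call the repeats biological and independent, but name no separate cultures, so that p-values measure the spread between these samples. If the replicate numbers of the labels follow the repeats, they mark a shared extraction day, which the labels do not state. Same-numbered arrays deviated from their strain means with correlations of 0.777, -0.93 and -0.861, and the fit with the number as a block is given beside the main one.

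The members, lists and array types were chosen with earlier results of these data known. Named are all members, the 2 brightest and 2 dimmest genes of the yellow and inner eggshell lists, the 5 most similar profiles and the nearest annotated neighbours. Lists are given by counts and medians. A gene with several probe sets was taken by the brightest. The fits were tested on simulated data. Figures were drawn in Python 3.11.15 with matplotlib 3.10.9.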

Additional observations from a re-analysis of the deposited data

How the results depend on the processing

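Over all 6 arrays no member passed the thresholds under any alternative but the array type block, with 2, and none reached an adjusted p under 0.05. The probe sets past the thresholds, 239, became 92 with the replicate block, 447 with the array type block, 981 with array quality weights (a fit that did not converge), 121 with a common median and 157 without moderation, and 130 to 297 with 1 array left out. With the replicate block, where a number may stand for an extraction day, 0 members passed, and it changed no call of a member. With 1 array left out the median of the members was -3.49 to 0.90. The values were -3.74 to 1.86 for Vm26Aa, -3.70 to 0.98 for Vm32E, -3.50 to 1.51 for Vm34Ca, -2.79 to 0.83 for psd, -3.29 to 0.58 for Femcoat, -3.49 to 0.69 for yellow-g and -3.24 to 1.25 for yellow-g2. In these fits the array types are unequal between the strains, so that the sign takes in the gap between the types. On the 4 female-type arrays 1 member passed, and 3 with a common median, 2 without the dimmest 40%, 3 with an intensity trend and 0 without moderation. With 1 array left out, where the lone array of a strain is assumed to vary like the others, 0 to 4 passed: 0 without Canton-S replicate 1, 4 without Canton-S replicate 2, 1 without D18 replicate 1 and 3 without D18 replicate 3. All 8 differences stayed below 0 under each of these alternatives, with a median of the members between -1.87 and -1.003 when 1 array was left out. The filter, the intensity trend and the lack of moderation leave the differences as they are. A left-out array could have turned the sign only in yellow-g2, where the strains overlap. The probe sets past the thresholds, 514, became 90 without moderation and 350 to 833 with 1 array left out. A common median moved the median of all probe sets from -0.07 to -0.32 on these arrays and from -0.05 to -0.22 on all 6. It shifts all probe sets of an array alike. The distance of the members from that median, 1.28 and 0.96 lower, therefore could not change. The difference between the array types kept its direction and size in all 8 members, with a median of 6.05 to 6.86 with 1 array left out. No replicate block was possible on the 4 arrays, where the strains share 1 number.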
